A study of Mus musculus with 6 samples.

Results

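Fibroblast growth factor (FGF) genes were followed in whole pancreas of young mice in which Prox1, a homeobox transcription factor, was overexpressed in the endocrine lineage. The genes were chosen by their symbols in the array annotation: every numbered Fgf and Fgfr gene and a fixed set of decoy receptor, co-receptor, carrier, adaptor, feedback and target genes. Of 40 such genes, 39 were measured, out of 18194 genes in all, and Frs2 was not analysed here. They were 15 paracrine ligands, 3 endocrine ligands, 4 intracellular factors of the ligand family, 5 receptors, 3 co-receptors and carriers, 1 adaptor, 6 feedback inhibitors and 2 transcription factors.

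FGFs are secreted proteins that bind receptor tyrosine kinases together with heparan sulfate or, for the endocrine ligands, with a Klotho protein. The activated receptor passes its signal through FRS adaptors to the Ras and ERK kinases. ERK signalling in turn raises the ETS factors Etv4 and Etv5 and the inhibitors of the Sprouty, Spred and Dusp6 kind, which dampen the same cascade. In the pancreas, FGFs of the mesenchyme drive growth of the epithelium before birth, and acinar cells produce and respond to Fgf21.

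The study compared 3 Prox1-OE samples (genotype Jojo-Prox1 with Ngn3-cre) with 3 controls (Ngn3-cre alone), 1 Affymetrix 3' array each. All came from the NMRI strain at postnatal day 15. Both groups thus carry the Cre, which acts in endocrine progenitors, so the transgene is switched on in a small share of the cells of a tissue that is mostly exocrine. Each value averages all cells, and fewer cells of a type and less RNA per cell cannot be told apart. Whether each sample is its own animal is not stated in the labels, so the p-values cover the spread of these samples alone, which may be partly technical.

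Values are log2 probe set summaries, and the number of arrays limits their precision. The array medians were 4.38 to 4.42, and a gene whose mean was not above their mean of 4.40 is called dim here. The first principal component (34.6% of the variance) set Prox1-OE replicate 1 apart (-28.7, against -4.37 to 16.7 on the others). It also separated the groups, as every Prox1-OE array lay below every control array (6.18 to 16.7). The second component (22.9%) set control replicate 3 apart (21.3, against -11.6 to 6.42 on the others). Cell cycle markers averaged 6.36 on control replicate 3 and 5.14 to 5.71 on the others. Xist, the RNA of the inactive X chromosome, read up to 11.7 on Prox1-OE replicate 2 and 12.0 on control replicate 2. Its 3 probe sets read 2.97 to 4.29 on the 4 other arrays, so each group held 1 array with Xist and 2 without. A Y-linked probe set read 3.06 on Prox1-OE replicate 2 and 2.89 on control replicate 2, against 7.61 to 7.96 on the others. The samples of each group thus came from more than 1 animal. All 8 measured acinar markers were above the array medians, and the list averaged 12.1 to 12.2 in Prox1-OE and 12.2 to 12.3 in control. The 3 Prox1 probe sets differed by -0.03 to 0.06, and as they may lie outside the transgene's transcript they do not check the labels. The averages of 6 marker lists did not overlap between the groups besides the acinar one. Beta cell markers averaged 6.84 to 7.13 in Prox1-OE and 7.39 to 7.92 in control. All 8 measured beta cell markers had negative differences, from -1.40 for G6pc2 to -0.15 for Iapp. Groups overlapped for Ins2 (-0.18), Iapp and Pdx1 (-0.22). Hepatocyte and intestinal markers averaged 5.81 to 5.94 in Prox1-OE and 5.98 to 6.24 in control. Of these, Alb, Ttr and Fabp1 overlapped between groups, and only Vil1 (-0.43), a dim gene, did not. Ttr was also listed as an alpha cell marker. Delta and PP cell markers were higher in Prox1-OE (8.19 to 8.77 against 7.47 to 7.93). So were B cell markers (4.89 to 6.47 against 4.36 to 4.56) and macrophage markers (6.84 to 7.35 against 6.45 to 6.67). Lymphatic endothelial markers were also higher (6.12 to 6.44 against 5.76 to 5.97). Prox1-OE replicate 1 was the highest array for each of these lists. Sst and Hhex of the delta and PP list overlapped between groups (differences 0.19 and 0.05), unlike Ppy (1.29) and Rbp4. Of the B cell and macrophage markers, Cd79a (-0.07) and C1qa (-0.13) had negative differences. Each lymphatic endothelial gene overlapped between groups, with differences from 0.06 for Prox1 to 0.68 for Lyve1. In these lists 1 gene passed over all genes, Rbp4 of the delta and PP list, with a difference of 1.43 ± 0.14 (limma adjusted p = 0.0247). Their part in the values of FGF genes was not tested.

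No FGF gene passed the threshold in Prox1-OE pancreas. Over all 18194 genes, 0 of the 39 had a limma adjusted p under 0.05, where 5 genes (0.0275%) did, and the lowest adjusted p among the 39 was 0.690. At an unadjusted limma p under 0.05, 2 of the 39 were lower (Fgf7 and Etv4) and 0 higher, or 5.13% against 6.65% of all genes (3.7% lower and 2.94% higher). The groups did not overlap for 5 of the 39 (12.8%), all lower in Prox1-OE, against 12.1% of all genes (7.02% lower and 5.05% higher). With both directions counted, the shares were near those of all genes, while the share lower without overlap was above that of all genes. The 5 were Fgf7, Fgf16, Fgf2, Fgf23 and Etv4, and all 5 were among the 20 dim FGF genes (25%). Among all dim genes 8.42% were lower and 3.33% higher without overlap, and 60.8% had a negative difference, as had 13 of the 20 dim FGF genes.

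The sizes were small as well. The median difference of the 39 genes was -0.02 on the log2 scale, against -0.01 for all genes, and the median size regardless of sign was 0.08 against 0.09. Of the 39, 25 had a negative difference, against 53.8% of all genes. When each array was centred on its median, 19 of the 39 were negative, against 47.8% of all genes. The limma 95% interval of the difference lay within 0.5 of 0 for 33 of the 39 genes (84.6%, and 82.1% of all genes). The exceptions were Fgf7, Fgf18, Fgf21, Fgfbp1, Dusp6 and Etv5. An adjusted p above the threshold does not show that the groups were equal, and for these 6 genes the interval reached past 0.5.

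**Figure D1:**
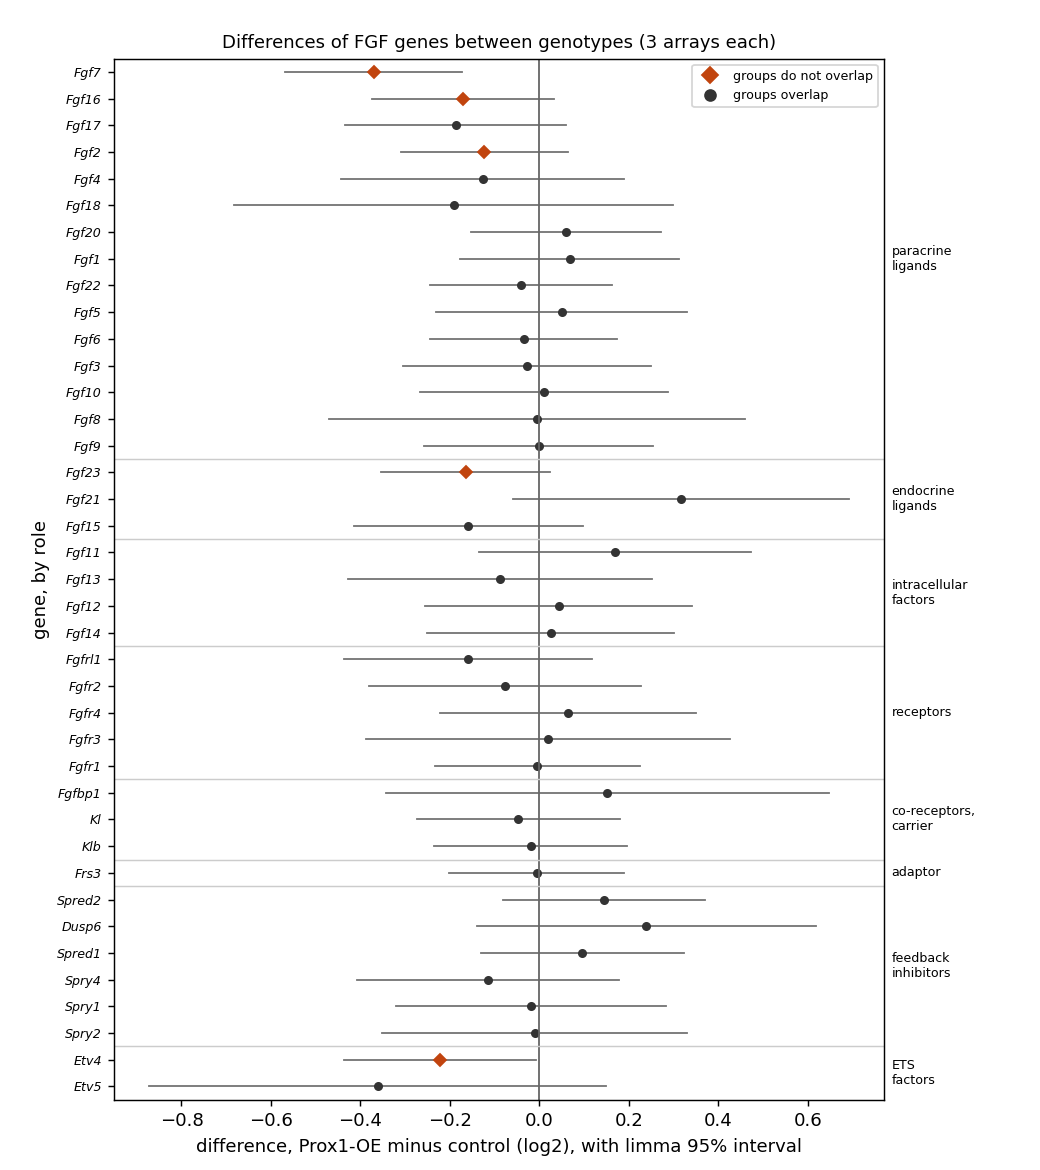
Difference of each of the 39 FGF genes (x axis, log2, Prox1-OE minus control, 3 arrays each), grouped by role, with the limma 95% interval as a line. Diamonds are the 5 genes whose groups do not overlap, and every interval but those of Fgf7 and Etv4 includes 0.

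Promoters of 3 genes are shown because they belong to the ligand with the largest difference (Fgf7) and to the feedback inhibitor and the ETS factor with the largest among the 39 genes (Dusp6 and Etv5, whose table entry has several starts). Each is the 250 bases before a RefSeq start in GRCm38.p6, 5′ to 3′ on the strand of the gene. Capitals mark GGAAG, the core of ETS factor sites with 1 more base, or CTTCC, the same on the other strand.
Fgf7, chr2:126034408-126034657, plus strand: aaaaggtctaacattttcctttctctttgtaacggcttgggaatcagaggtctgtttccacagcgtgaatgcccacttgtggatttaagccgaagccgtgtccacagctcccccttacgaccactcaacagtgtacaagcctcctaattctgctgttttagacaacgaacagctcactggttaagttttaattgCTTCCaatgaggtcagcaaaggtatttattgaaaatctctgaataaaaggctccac
Dusp6, chr10:99262981-99263230, plus strand: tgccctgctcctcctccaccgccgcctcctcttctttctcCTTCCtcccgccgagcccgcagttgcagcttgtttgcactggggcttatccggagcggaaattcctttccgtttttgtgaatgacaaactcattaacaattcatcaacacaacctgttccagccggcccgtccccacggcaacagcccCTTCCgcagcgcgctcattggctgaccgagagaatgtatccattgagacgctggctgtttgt
Etv5 (start downstream), chr16:22438369-22438618, minus strand: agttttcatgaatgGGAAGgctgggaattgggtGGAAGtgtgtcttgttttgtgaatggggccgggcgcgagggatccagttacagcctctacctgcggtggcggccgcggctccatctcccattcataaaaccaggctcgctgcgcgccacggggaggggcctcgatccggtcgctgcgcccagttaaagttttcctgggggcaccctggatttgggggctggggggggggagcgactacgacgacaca
Etv5 (start upstream), chr16:22439571-22439820, minus strand: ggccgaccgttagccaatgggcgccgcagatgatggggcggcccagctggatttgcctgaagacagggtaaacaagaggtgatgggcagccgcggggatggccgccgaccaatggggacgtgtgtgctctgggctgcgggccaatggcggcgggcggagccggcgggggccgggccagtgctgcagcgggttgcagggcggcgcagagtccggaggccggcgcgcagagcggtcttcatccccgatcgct
The motif was found once before Fgf7, in 2 places before Dusp6 and in 2 before one start of Etv5, and not in the window of the other. It is common: 64.1% of 32851 windows of this length held it on either strand, and so did 24 of the 38 windows of 30 FGF genes (63.2%). These matches describe the letters only.

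The paracrine ligands had low values. Of 15 genes, 10 were dim, and the whole class read between 2.99 and 5.18. None passed over all genes, 3 of 15 had groups that did not overlap, all lower (20%, against 7.02% of all genes lower and 12.1% in either direction), and the median difference was -0.04. In the plot of array values the ligands lie to the left and most receptors to the right, though levels of different probe sets cannot be ranked.

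Fgf7, the keratinocyte growth factor that mesenchyme sends to epithelium, had the largest difference of all 39 genes. It read 4.60, 4.47 and 4.51 on control replicates 1 to 3 and 4.10, 4.16 and 4.21 on Prox1-OE replicates 1 to 3. Every control array was above every Prox1-OE array. The difference was -0.37 ± 0.09 (SE, n = 3 per group, 95% interval -0.57 to -0.17, limma adjusted p = 0.690), or 0.774-fold. It lay between -0.40 and -0.33 without any one array.

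A further probe set of Fgf7, as bright over the 6 arrays (mean 4.31, against 4.34), did not show it. It read 4.35, 4.13 and 4.32 in control and 4.29, 4.34 and 4.41 in Prox1-OE. The groups overlapped there, and the difference was 0.08 ± 0.10 (95% interval -0.14 to 0.30). With the mean of both probe sets the difference was -0.15 and its unadjusted p no longer lay under 0.05. Of the fibroblast and mesenchyme markers, all 8 had positive differences and 0 passed over all genes. Their list averaged 9.64 to 10.1 in Prox1-OE and 9.42 to 9.73 in control, and their part in the Fgf7 value was not tested.

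Fgf16 and Fgf2, whose groups also did not overlap, were far below the array medians. Fgf16 read 3.52, 3.62 and 3.56 in control and 3.29, 3.44 and 3.45 in Prox1-OE, a difference of -0.17 ± 0.09 (limma adjusted p = 0.766). Fgf2, basic FGF, read 3.10, 3.12 and 3.19 in control and 3.04, 2.99 and 3.01 in Prox1-OE, a difference of -0.12 ± 0.08 (95% interval -0.31 to 0.06). Both gaps between the groups were under 0.1, smaller than the standard errors. The lower quartile of the array values was 3.41 to 3.44 in Prox1-OE and 3.45 to 3.46 in control, also without overlap. With quantile normalization again the difference was -0.14 for Fgf16 and -0.10 for Fgf2.

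Of the other paracrine ligands, Fgf10, the mesenchymal factor of pancreatic progenitors, read 3.64 to 4.01 in control and 3.66 to 3.91 in Prox1-OE (difference 0.01, 95% interval -0.27 to 0.29). Fgf1, acidic FGF, was above the array medians, at 4.89 to 4.97 in control and 4.83 to 5.18 in Prox1-OE (difference 0.07, interval -0.18 to 0.31). Fgf9 read 4.68 to 4.75 and 4.51 to 4.89, with both means at 4.72. The interval of its difference ran from -0.26 to 0.25. Fgf18 had the widest interval of the class (-0.68 to 0.30), as control replicate 3 read 4.68 and control replicate 2 read 3.71, with Prox1-OE at 3.94 to 4.07 between them. Fgf3, Fgf4, Fgf5, Fgf6, Fgf8, Fgf17, Fgf20 and Fgf22 also overlapped between groups, with differences from -0.19 for Fgf17 to 0.06 for Fgf20. The brightest probe set of Fgf22 differed by -0.04 ± 0.09. Its other probe set, almost as bright (mean 4.55, against 4.60), differed by -0.27 ± 0.13 with overlapping groups (limma adjusted p = 0.804 over all probe sets). One of the 4 probe sets of Fgf4, a dim one of a type that can bind other transcripts, differed by -0.35 ± 0.12 (limma adjusted p = 0.760 over all probe sets), and the brightest by -0.13 ± 0.14.

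**Figure D2:**
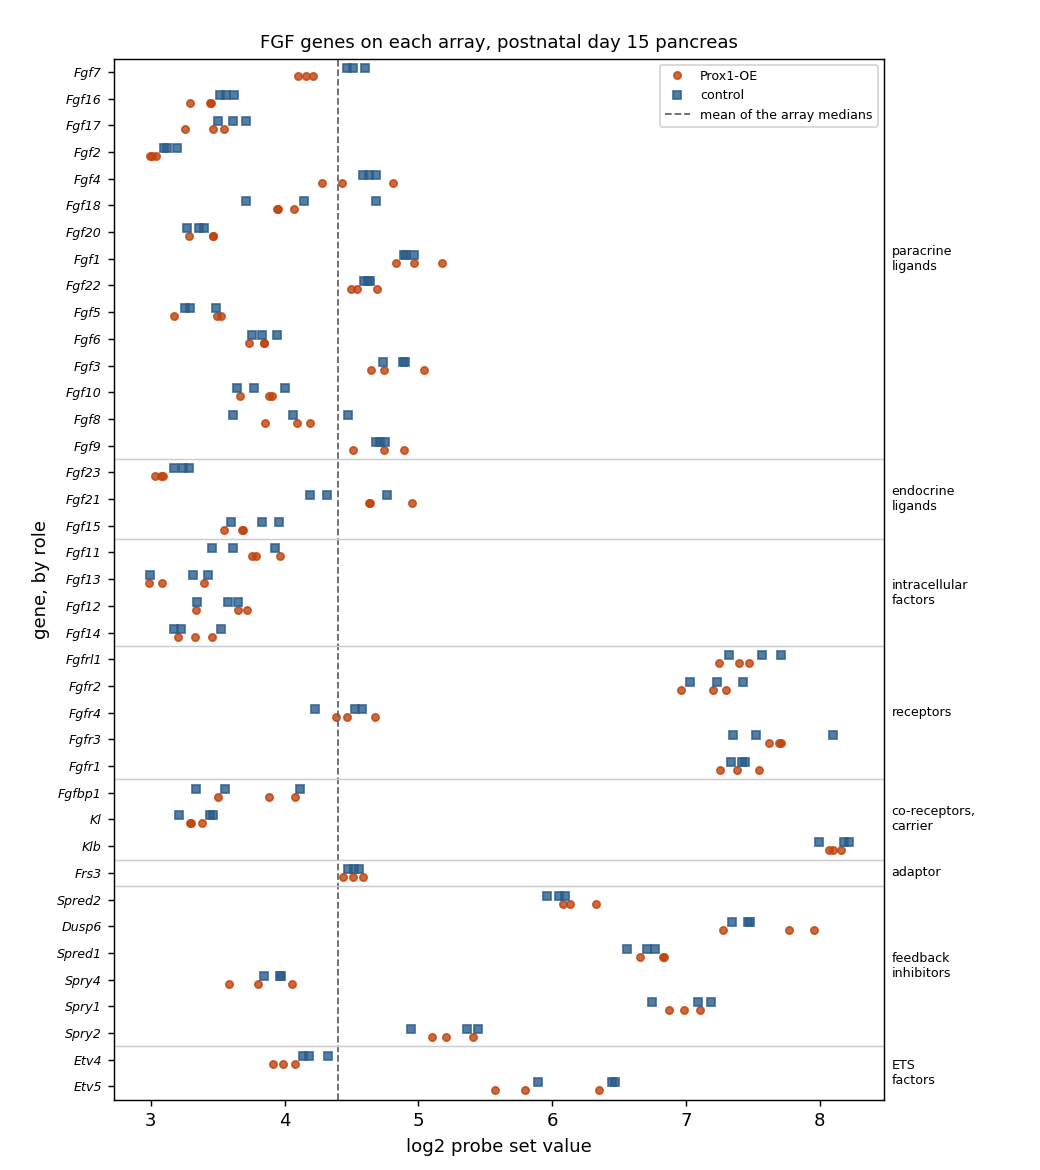
Log2 probe set value (x axis) of the 39 FGF genes on each array, grouped by role, with Prox1-OE as circles, control as squares and the mean of the array medians (4.40) as a dashed line. All 4 intracellular factors and 10 of 15 paracrine ligands have means left of the line, all 5 receptors right of it.

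No endocrine ligand passed, and Fgf21 and Fgf23 had differences of opposite sign. Fgf21, a stress and fasting hormone also made by acinar cells, read 4.77, 4.19 and 4.32 in control and 4.64, 4.95 and 4.63 in Prox1-OE. Control replicate 1 lay within the Prox1-OE values, and the other controls below them. The difference was 0.32 ± 0.16 (95% interval -0.06 to 0.69, limma adjusted p = 0.766). Without control replicate 1 it was 0.49 (limma adjusted p = 0.763), and without control replicate 2 it was 0.20. Fgf23, the phosphate hormone of bone, read 3.28, 3.24 and 3.17 in control and 3.09, 3.08 and 3.03 in Prox1-OE. The groups did not overlap, at values far below the array medians, and the difference was -0.16 ± 0.08 (limma adjusted p = 0.766). With quantile normalization again the difference of Fgf23 was -0.14. Fgf15, the bile acid signal of the gut, differed by -0.16 ± 0.11, with overlapping groups at 3.54 to 3.96.

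The intracellular factors Fgf11, Fgf12, Fgf13 and Fgf14, which bind sodium channels of excitable cells and do not act on FGF receptors as secreted ligands, were all dim (2.99 to 3.96). Fgf11 differed by 0.17 ± 0.13 and Fgf13 by -0.09 ± 0.15, and the 4 genes had overlapping groups.

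None of the 5 receptors passed, and the groups overlapped for each. Fgfr1, a partner of beta-Klotho, read 7.44, 7.42 and 7.34 in control and 7.54, 7.26 and 7.38 in Prox1-OE. The Prox1-OE arrays spread around the controls, and the difference was -0.0046 ± 0.10 (SE) with an interval from 0.850-fold to 1.17-fold. Fgfr2, which in its epithelial form receives Fgf7 and Fgf10, read 7.43, 7.03 and 7.23 in control and 7.20, 7.30 and 6.96 in Prox1-OE. Its groups overlapped throughout (difference -0.08 ± 0.13, 0.768-fold to 1.17-fold). Fgfr3 read 8.09, 7.52 and 7.35 in control and 7.71, 7.62 and 7.70 in Prox1-OE. Its spread was in the controls (SD 0.39, against 0.05 in Prox1-OE), and control replicate 1 was the highest of the 6 arrays. The difference was 0.02 ± 0.18. Fgfrl1, the receptor without a kinase domain, had the smallest p of the class, with 7.32, 7.57 and 7.71 in control and 7.39, 7.25 and 7.47 in Prox1-OE (difference -0.16 ± 0.12, limma adjusted p = 0.824). Fgfr4 was near the array medians (4.23 to 4.67), and its 5 probe sets differed by -0.15 to 0.31. The brightest probe sets of Fgfr1, Fgfr2, Fgfr4 and Fgfrl1 are of types that can bind more than 1 transcript.

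Klb, beta-Klotho, the co-receptor that makes cells sensitive to Fgf21, read 8.18, 8.22 and 7.99 in control and 8.07, 8.16 and 8.10 in Prox1-OE. All 3 Prox1-OE arrays lay within the control range. The difference was -0.02 ± 0.09, with an interval from 0.849-fold to 1.15-fold. The acinar markers all had negative differences (8 of 8, list mean -0.09), and 0 passed. Kl, the co-receptor of Fgf23, was dim (3.21 to 3.47, difference -0.05 ± 0.10). Fgfbp1, which releases FGFs from the matrix, was dim and uneven, at 3.33 to 4.11 in control and 3.50 to 4.07 in Prox1-OE (difference 0.15 ± 0.22). The adaptor Frs3 read 4.47 to 4.55 in control and 4.44 to 4.58 in Prox1-OE, with a difference of -0.01 ± 0.09.

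Feedback inhibitors, which follow ERK activity, had differences of both signs, 3 of 6 positive and 3 negative, with a median of 0.04. None of the 6 had groups without overlap and 0 passed over all genes. Dusp6, the phosphatase that inactivates ERK, had the largest difference of the class. It read 7.48, 7.35 and 7.46 in control and 7.96, 7.28 and 7.77 in Prox1-OE. Prox1-OE replicates 1 and 3 were above all controls and replicate 2 below them all. The difference was 0.24 ± 0.16 (95% interval -0.14 to 0.62, limma adjusted p = 0.807). It was 0.44 without Prox1-OE replicate 2 (limma adjusted p = 0.522) and 0.09 without Prox1-OE replicate 1.

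Spry1, a Sprouty inhibitor, read 7.19, 6.74 and 7.09 in control and 6.87, 6.99 and 7.11 in Prox1-OE, and Prox1-OE lay within the control range (difference -0.02 ± 0.13). Spry2 read 4.94 to 5.44 and 5.10 to 5.41 (difference -0.01 ± 0.15), again within the controls. Spry4 was dim, at 3.85 to 3.97 in control and 3.58 to 4.06 in Prox1-OE (difference -0.12 ± 0.13). Spry1 and Spry2 turned positive with median centring, and Spry4 stayed negative (-0.10).

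Spred1 and Spred2, which hold back Raf activation, gave different signs with different probe sets. The brightest probe set of Spred2 read 5.96, 6.05 and 6.10 in control and 6.08, 6.33 and 6.13 in Prox1-OE (difference 0.14 ± 0.10, limma adjusted p = 0.806). The next, almost as bright, read 6.23, 6.19 and 6.12 in control and 5.99, 5.89 and 5.98 in Prox1-OE, with no overlap and a difference of -0.23 ± 0.09 (limma adjusted p = 0.792 over all probe sets). The 3 others were also negative, and the mean of all 5 differed by -0.14. For Spred1, the brightest of 8 probe sets differed by 0.10 ± 0.10, the next by 0.27 ± 0.11 (limma adjusted p = 0.794 over all probe sets) and the one after it by -0.15 ± 0.13. Of all 88 probe sets of FGF genes, 5 had an unadjusted limma p under 0.05 (5.68%, against 6.21% of all probe sets), and 0 passed the adjusted threshold (0.0114% of all probe sets did). Of the 25 genes with more than 1 probe set, 11 had probe sets of both signs.

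**Figure D3:**
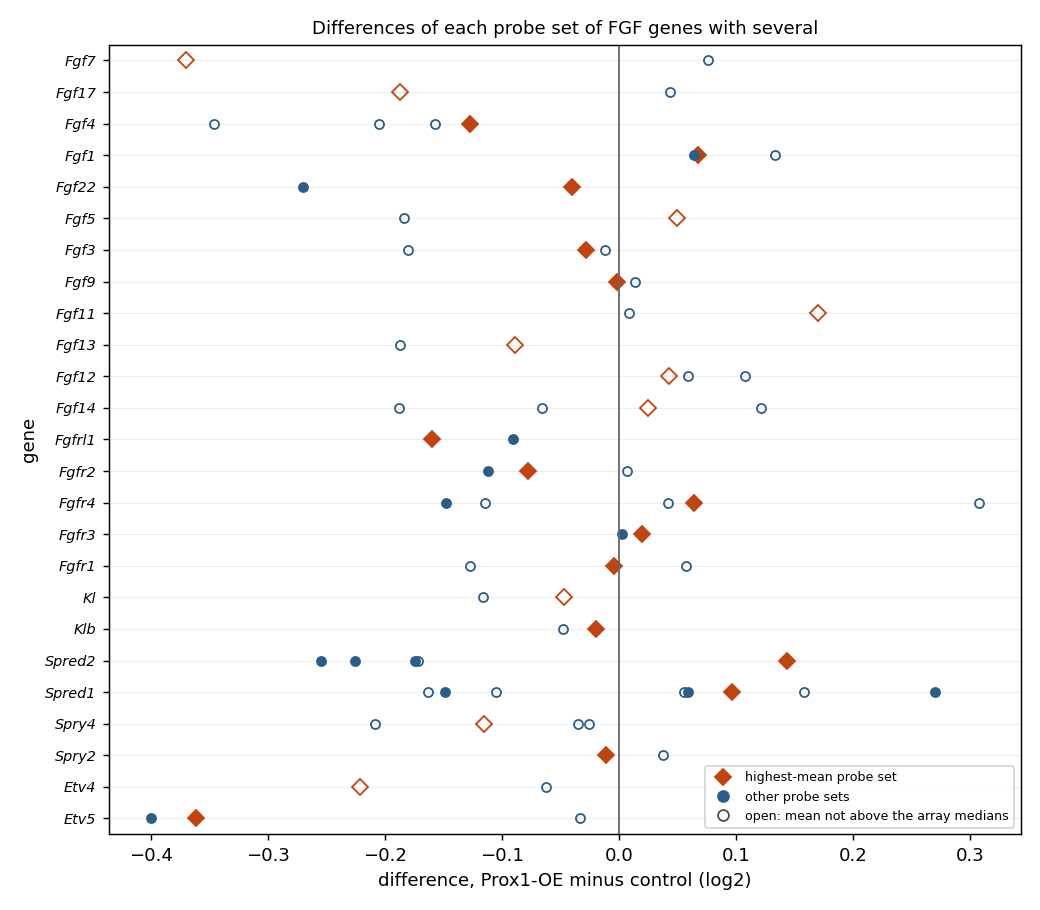
Difference (x axis, log2, Prox1-OE minus control) of every probe set of the 25 FGF genes that have more than 1, with the highest-mean probe set as a diamond and dim ones open. The 2 probe sets of Fgf7 lie at -0.37 and 0.08, and those of Spred2 at 0.14 and at -0.25 to -0.17.

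Both ETS factors that FGF signalling raises had negative differences, neither past the threshold. Etv4 read 4.18, 4.33 and 4.14 in control and 4.08, 3.92 and 3.99 in Prox1-OE. The groups did not overlap, though the lowest control and the highest Prox1-OE array were 4.14 and 4.08. The difference was -0.22 ± 0.09 (95% interval -0.44 to -0.01, limma adjusted p = 0.740), and its other probe set differed by -0.06 ± 0.09. Its unadjusted p was not under 0.05 with the replicate block, probe sets averaged per gene (difference -0.14), quantile normalization again, median centring, trend and robust settings or the sex term. Nor was it without Prox1-OE replicate 2 or 3 or control replicate 1 or 2, where the differences ran from -0.24 to -0.17.

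Etv5 was above the array medians and more variable. It read 5.89, 6.47 and 6.45 in control and 5.57, 6.35 and 5.80 in Prox1-OE. Control replicate 1 was low among the controls and Prox1-OE replicate 2 high among its group, so the groups overlapped. The difference was -0.36 ± 0.22 (95% interval -0.87 to 0.15, limma adjusted p = 0.786). It was -0.58 without Prox1-OE replicate 2, -0.55 without control replicate 1 and -0.20 without Prox1-OE replicate 1. The other probe sets differed by -0.40 ± 0.24 and -0.03 ± 0.16. Dusp6 and Etv5, both induced by ERK, thus had differences of opposite sign, each with an interval that included 0.

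**Figure D4:**
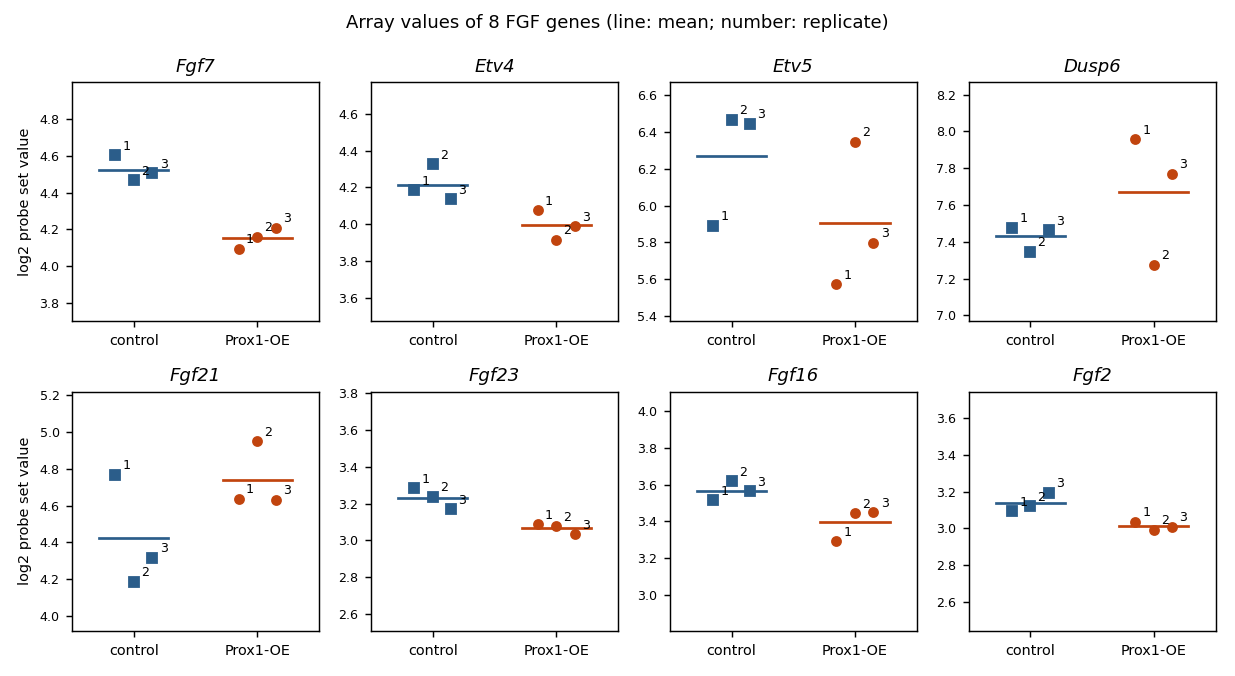
Log2 probe set values of 8 FGF genes by group, each point an array with its replicate number and each line a group mean, on y axes of equal span. Fgf7, Etv4, Fgf23, Fgf16 and Fgf2 do not overlap between groups, while Prox1-OE replicate 2 stands apart from its group for Etv5 and Dusp6.

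Other genes of the pathway gave a like picture. Of 50 listed genes 42 were measured and the others were not analysed here. None passed over all genes. At an unadjusted limma p under 0.05, 1 was higher and 1 lower (4.76%, against 6.65% of all genes), and the groups did not overlap for 3 higher and 3 lower (14.3%, against 12.1%). The median difference was 0.03.

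Among the kinases and relay proteins, Nras, a Ras protein, read 6.84, 7.01 and 7.09 in control and 7.30, 7.08 and 7.36 in Prox1-OE (difference 0.26 ± 0.11, limma adjusted p = 0.740). The lowest Prox1-OE array lay just below the highest control. Map2k1, the kinase that activates ERK, read 8.06, 8.20 and 7.92 in control and 8.23, 8.29 and 8.28 in Prox1-OE (difference 0.21 ± 0.10, limma adjusted p = 0.763). Pik3ca, a catalytic subunit of PI3 kinase, was also higher on every Prox1-OE array (difference 0.17 ± 0.09), and Akt1 differed by -0.19 ± 0.10 with overlapping groups.

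Among other feedback and target genes, Flrt3, a membrane partner of FGF receptors, differed by 0.33 ± 0.15 (limma adjusted p = 0.753) near the array medians. The phosphatase genes Dusp4 and Dusp5 differed by 0.20 ± 0.11 and -0.23 ± 0.14, and Il17rd, a receptor-like inhibitor of FGF signalling, by 0.09 ± 0.11. Dusp4 was dim (mean 3.53). Groups overlapped for all 11 genes of this class, where 12.1% of all genes had groups without overlap. The early response genes Egr1, Fos and Myc, shown for their spread, had wide intervals: that of Fos ran from -0.97 to 0.86, with 5.12 to 6.60 in control and 5.34 to 6.53 in Prox1-OE.

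Heparan sulfate genes encode proteins that carry heparan sulfate or enzymes that make or modify it. Their groups did not overlap for 4 of 15 (26.7%, against 12.1% of all genes). The unadjusted limma p was under 0.05 for 1 of 15 (6.67%, against 6.65%). Syndecan genes went both ways: Sdc3 read 6.43, 6.51 and 6.63 in control and 6.30, 6.39 and 6.20 in Prox1-OE (difference -0.23 ± 0.10, limma adjusted p = 0.740). Sdc4 read 8.75, 8.83 and 8.78 in control and 9.03, 8.85 and 9.22 in Prox1-OE (difference 0.25 ± 0.11, limma adjusted p = 0.753). The glypican gene Gpc1 (-0.26 ± 0.12) and the sulfotransferase gene Hs2st1 (-0.11 ± 0.08) were lower on every Prox1-OE array, and Sulf1, which trims sulfate, differed by 0.34 ± 0.19 with overlapping groups.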

How the data were processed

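RNA of whole pancreas was measured on 6 Affymetrix arrays, with cRNA made from 100 ng of total RNA, per the labels' protocols. The values deposited by the authors are log2 probe set summaries. RMA, which normalizes arrays to a shared distribution, and Partek 6.5 are named in the submitters' processing notes without settings. RMA compresses differences of dim probe sets, and a change of total RNA cannot be seen.

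Of 45101 probe sets, 34958 had 1 gene symbol in the platform annotation, and the highest-mean probe set stood for each of 18194 genes. The main test was two-sided and had no covariate (limma 3.58.1, functions lmFit and eBayes, under R 4.3.3), with Benjamini-Hochberg adjustment over all genes at 0.05. The fit was tested on simulated data, drawn as independent normal values without array effects. That test required recovery only of differences far larger than those of the FGF genes, so it does not bear on the detection of differences of their size. It also required few false calls and interval coverage near the nominal level, the latter over spiked differences of all sizes together. Errors after ± are SEs of differences.

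The genes and lists were chosen with earlier results of these data known. FGF genes were named by rule for an unadjusted p under 0.05, no overlap, the 2 smallest p of a role, or probe sets of both signs with 1 at an unadjusted p under 0.05. Of the pathway genes, the rule named the 4 with the smallest p in each class. Other values shown, such as those of Hs2st1 and the early response genes, were chosen after they were seen. Alternatives covered probe set choice, a filter on dim genes, normalization, moderation, array weights, replicate number as a block, thresholds and leaving out each array. A sex term from Xist was added after the data were seen.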

Additional observations from a re-analysis of the deposited data

How the results depend on the processing

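The count of 0 FGF genes past the adjusted threshold held under every alternative run, at an adjusted p of 0.1 too, and the lowest adjusted p of a member was 0.522, for Dusp6 without Prox1-OE replicate 2. At an unadjusted p of 0.05 in place of the adjusted one, 2 FGF genes, 2 pathway genes and 1209 of all genes passed. Of all genes, 0 to 4 passed without any one array in place of 5, 2 with the replicate block and 0 with the sex term. The number with an unadjusted p under 0.05, a count added after the data were seen, was 1 with quantile normalization again, median centring, trend and robust settings or the sex term, and 1 to 4 without any one array. Fgf7 was among them in all of these, while with probe sets averaged per gene the 2 were Fgf4 and Fgf23. The filter to genes above the median of all genes kept 10 FGF genes, of which 0 had such a p and 0 had groups without overlap. Without any one array 7 to 11 FGF genes had groups without overlap (17.9% to 28.2%, against 20.2% to 24.0% of all genes under the same settings).

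Same-numbered arrays deviated together only weakly (correlations 0.044, 0.14 and 0.11 for replicates 1, 2 and 3). Each of these was above the range for arrays of different numbers (-0.14 to 0.012). The labels state no pairing, so the main test did not take the numbers as pairs, and the block was run as an alternative. With the replicate block, 0 FGF genes passed, and the genes with an unadjusted p under 0.05 were Fgf7 and Etv5, in place of Fgf7 and Etv4.

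Some differences changed sign, none of them past the threshold. With probe sets averaged per gene these were Fgf5 (-0.067), Fgf9 (0.0061), Fgf14 (-0.027), Spred2 (-0.14) and Spry2 (0.014), and with probe sets specific to 1 transcript Fgf5 (-0.18), Fgf14 (-0.19) and Fgfr2 (0.0070). With quantile normalization again they were Fgf8 (0.015), Fgf9 (0.013), Fgfr3 (-0.0056) and Frs3 (0.0098). With median centring they were Fgf8 (0.013), Fgf9 (0.017), Fgfr1 (0.014), Frs3 (0.012), Spry1 (0.00013) and Spry2 (0.0080), and with array weights Fgf10 (-0.0098), Fgfr3 (-0.022), Frs3 (0.00092), Spry1 (0.015) and Spry2 (0.043). Without any one array, differences that changed sign ran from -0.42 to 0.061 for Fgf18, from -0.025 to 0.15 for Fgf1, from -0.097 to 0.00016 for Fgf22, from -0.012 to 0.16 for Fgf5, from -0.079 to 0.013 for Fgf6, from -0.15 to 0.055 for Fgf3, from -0.072 to 0.11 for Fgf10, from -0.22 to 0.21 for Fgf8, from -0.091 to 0.10 for Fgf9, from -0.21 to 0.0030 for Fgf13, from -0.045 to 0.16 for Fgf12, from -0.041 to 0.13 for Fgf14, from -0.18 to 0.022 for Fgfr2, from -0.043 to 0.13 for Fgfr4, from -0.13 to 0.24 for Fgfr3, from -0.080 to 0.064 for Fgfr1, from -0.014 to 0.38 for Fgfbp1, from -0.13 to 2.7e-05 for Kl, from -0.089 to 0.024 for Klb, from -0.044 to 0.030 for Frs3, from -0.24 to 0.00039 for Spry4, from -0.15 to 0.072 for Spry1, from -0.17 to 0.087 for Spry2. Array number limits the precision of each value, and dim probe sets are compressed by RMA.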

Other observations

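Dusp6 and Etv5 took opposite places on the arrays with Xist. Within each group, replicate 2, the array with Xist, was the lowest for Dusp6 (7.35 in control and 7.28 in Prox1-OE) and the highest for Etv5 (6.47 and 6.35). Control replicate 3, without Xist, read nearly as high for Etv5 (6.45). With 1 such array per group, and the pattern chosen after the values were seen, no test was made.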
